A study of Mus musculus with 12 samples.

Results

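The 42 genes described here act in the G2 phase and in mitosis: the kinase and cyclins that start cell division, the kinetochore and its checkpoint, the condensins, the spindle and the machinery of cytokinesis. They were taken from a fixed list of gene names, and all 42 of the 42 listed were among the 23279 genes measured. Expression was read on 12 single-colour arrays of RNA from cells labelled as inflammatory monocytes of mouse blood, gated as high in Ly6C and positive for CD115 and CD11b. The labels assign 6 arrays to TRIM33 mice, in which the chromatin cofactor Trim33 is targeted, and 6 to WT mice. All 12 carry the same strain label, C57BL/6 LyzCre, and the same age of 6 to 8 weeks. LyzCre names a recombinase expressed from a lysozyme locus in myeloid cells, which include cells other than monocytes, and it is not stated whether the label describes the WT mice too. Both genotypes have 2 arrays whose titles call them mixes, without a statement of what was mixed. Nothing ties an array to an animal of its own, and the p-values therefore measure the spread among arrays alone, part of which may be technical. Values are log2 expression values as the authors deposited them, and a difference of 1 is a doubling of the signal.

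Dividing cells make most of these transcripts late in the cycle. The genes are held off in resting cells by the DREAM complex, and in G2 the MuvB core of that complex joins the transcription factors Mybl2 and Foxm1 to switch them on through a promoter element called the cell cycle homology region. Cdk1 with its cyclins then drives the cell into mitosis, the spindle checkpoint waits until every kinetochore is attached, and the anaphase-promoting complex ends mitosis by marking cyclins and securin for destruction. Ly6C-high monocytes in blood are regarded as resting cells, made by dividing precursors in the bone marrow.

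The start regions of the members were searched for the core letters of the cell cycle homology region, TTTGAA or TTCGAA. They were also searched for the CCAAT box, CCAAT, each motif on both strands. Whether each member is controlled in the way described above was not tested. The motifs were searched from 250 bases before to 50 bases after each RefSeq start. The RefSeq table, of build GRCm38.p6, held 37 start regions of 35 members. No region was listed for Ccna2, Cdc25c, Foxm1, Aurkb, Incenp, Tpx2 and Kif20a. A homology region core stood in 30 of the 37 regions (81.1%), against 19.2% of all 32851 regions of this length. A CCAAT box stood in 28 of them (75.7%), against 37.4% of all, and at least 2 boxes in 18 (48.6%), against 11.7%. In 27 of the 37 (73.0%) a core began within 50 bases of the start, a window chosen after the positions were seen, against 5.31% of all regions. The same core was present in 64.1% of 64 regions of other mitosis genes, in 18.8% of 16 regions of DNA replication genes and in 13.3% of 15 regions of the core subunits of the anaphase-promoting complex. The CCAAT box was as common in related lists as in the members. It stood in 70.3%, 75.0% and 46.7% of the regions of these 3 lists, in that order. At least 2 boxes stood in 37.5%, 37.5% and 13.3%. A match is a description of letters and not a binding site. The regions of Birc5, Cenpe, Mad2l1, Melk, Nuf2, Nusap1 and Pttg1 held no core in this window, which says nothing of how those genes are controlled.

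The 130 bases before the start are printed for 5 members whose motifs lie before the start, and for Pttg1, the member whose array values ran the other way. These 5 do not show the usual position. In most other regions with a core within 50 bases it began after the start, as at 15 in Bub1, 33 in Aurka and 31 in Plk1. In those of Ncapg and Prc1 it began before the start. The lines read 5′ to 3′ on the gene's strand. Capitals mark the homology region core (TTTGAA or TTCGAA, or TTCAAA on the other strand) and the CCAAT box (ATTGG on the other strand). The stretches lie at chr10:69352913-69353042 (minus strand) for Cdk1, chr11:99024190-99024319 (minus) for Top2a, chr4:118437344-118437473 (minus) for Cdc20, chr2:164769799-164769928 (plus) for Ube2c, chr19:37376252-37376381 (plus) for Kif11 and chr11:43425982-43426111 (minus) for Pttg1.
Cdk1: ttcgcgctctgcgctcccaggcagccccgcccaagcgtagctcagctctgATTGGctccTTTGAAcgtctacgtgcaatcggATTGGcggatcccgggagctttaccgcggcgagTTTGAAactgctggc
Top2a: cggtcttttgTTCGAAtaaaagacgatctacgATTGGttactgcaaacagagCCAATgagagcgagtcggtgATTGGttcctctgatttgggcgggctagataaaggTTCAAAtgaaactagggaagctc
Cdc20: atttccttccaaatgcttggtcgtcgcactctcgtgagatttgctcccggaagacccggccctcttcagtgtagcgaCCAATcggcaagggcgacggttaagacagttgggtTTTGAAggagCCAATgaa
Ube2c: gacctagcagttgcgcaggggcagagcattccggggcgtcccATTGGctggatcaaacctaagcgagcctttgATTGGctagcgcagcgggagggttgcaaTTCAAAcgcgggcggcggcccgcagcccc
Kif11: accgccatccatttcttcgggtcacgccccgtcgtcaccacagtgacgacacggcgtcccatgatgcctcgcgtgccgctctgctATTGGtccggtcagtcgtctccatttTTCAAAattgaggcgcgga
Pttg1: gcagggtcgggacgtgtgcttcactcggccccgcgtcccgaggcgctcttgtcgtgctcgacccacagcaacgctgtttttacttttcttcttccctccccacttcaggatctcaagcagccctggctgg
Counted back from the start, the cores nearest it began at -15 in Cdk1, -18 in Cdc20, -19 in Kif11, -23 in Top2a and -29 in Ube2c. The stretch of Pttg1 held neither motif. The full searched regions of Birc5, Mad2l1, Melk, Nuf2 and Nusap1 also held neither, and their array values ran with the other members. A link between the motifs and the array values was not tested.

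Before the members' values, a feature of the arrays has to be stated. Xist, the RNA of the silenced X chromosome of female cells, was higher than the mean of the Y-linked genes Eif2s3y, Kdm5d and Uty on 6 arrays (the Xist set) and lower on the other 6 (the Y set). Each set holds 3 TRIM33 and 3 WT arrays, so genotype is balanced over the sets, and all 4 mixes lie in the Y set. The sets are not a group of the study and the labels do not name them. They were defined without any member, and values by set are therefore described and not tested. Trim33 followed the genotype labels in each set: it read 6.06 to 6.23 on the 6 TRIM33 arrays and 6.81 to 7.05 on the 6 WT arrays.

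The members read far higher in the Xist set. For 41 of 42 members all 6 arrays of the Xist set lay above all 6 of the Y set, as they did for 7.45% of all genes. The median over the members of the difference between set medians was 4.28 on the log2 scale, against 0.0014 over all genes. In 39 of 42 that difference exceeded 2, as in 1.15% of all genes. When all 23279 genes are ranked by this difference, 11 of the 20 highest were members, as were 33 of the 100 highest. Averaged over the 42 members, the Xist-set arrays lay at 8.68 to 8.73 and the Y-set arrays at 4.45 to 5.14. In bulk RNA a larger share of dividing cells and more transcript per cell cannot be told apart. The labels also do not say whether the sets were separate experiments or came from different cell sources, which was not tested, so the gap cannot be tied to a known difference between samples of 1 kind.

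**Figure D1:**
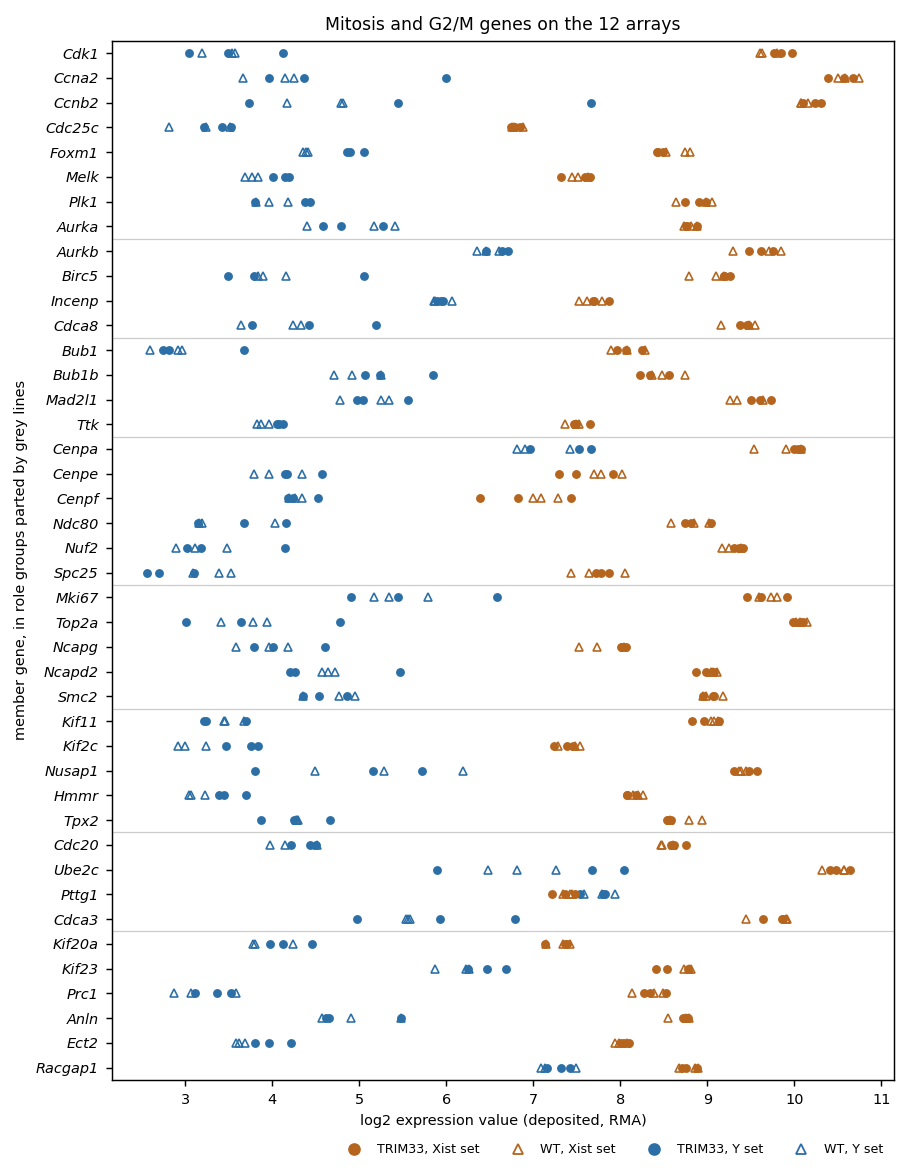
Log2 expression value (x axis) of each of the 42 members (rows, in role groups parted by grey lines) on the 12 arrays; filled circles are TRIM33 and open triangles WT, brown the Xist set and blue the Y set. In 41 rows the 6 brown points lie right of all 6 blue points, and in Pttg1 they lie left of them.

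The genes of entry into mitosis differed by 3.46 to 6.38 between set medians. Cdk1, the kinase that drives mitosis, read 9.60, 9.78 and 9.98 (lowest, median and highest of 6 arrays) in the Xist set and 3.04, 3.52 and 4.12 in the Y set. Ccna2, the cyclin that partners Cdk2 in S phase and Cdk1 in G2, read 10.39, 10.58 and 10.74 against 3.67, 4.20 and 6.00. Its difference of medians, 6.38, was the third highest of all genes. Ccnb2, a B-type cyclin, read 10.08, 10.13 and 10.30 against 3.73, 4.80 and 7.66. The Y-set arrays were thus spread over a range of several log2 units for Ccnb2, while those of the Xist set were tight. The other members of this role differed by 3.46 for Cdc25c, the phosphatase that activates Cdk1, 3.63 for the kinase Melk, 3.81 for the spindle pole kinase Aurka, 3.87 for Foxm1 and 4.87 for Plk1, the Polo kinase.

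The chromosomal passenger complex, which corrects faulty attachments and guides cytokinesis, differed unevenly among its subunits. Aurkb, its kinase, read 9.29, 9.66 and 9.84 in the Xist set and 6.36, 6.53 and 6.71 in the Y set. Birc5, or survivin, which targets the complex, read 8.78, 9.19 and 9.26 against 3.50, 3.87 and 5.05. Cdca8, or borealin, differed by 5.17 between set medians. Incenp, the scaffold, read 7.53, 7.69 and 7.87 against 5.87, 5.92 and 6.07, a difference of 1.77 and the third smallest among members. None of the 4 overlapped between the sets.

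All 4 spindle checkpoint genes were higher in the Xist set. Bub1, a checkpoint kinase, read 7.90, 8.07 and 8.29 against 2.60, 2.87 and 3.67. Bub1b, which encodes the inhibitor BubR1, read 8.23, 8.42 and 8.75 against 4.71, 5.15 and 5.85. Mad2l1, the checkpoint protein that binds Cdc20, differed by 4.41 between set medians. For Ttk, the kinase at the top of the checkpoint, that difference was 3.48.

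Among the 6 kinetochore and centromere genes the difference of medians ran from 2.79 to 6.19. Nuf2 and Ndc80, which form the arm that holds the microtubule, lay near the upper end: Nuf2 read 9.17, 9.33 and 9.41 against 2.89, 3.15 and 4.14, and Ndc80 differed by 5.40. Spc25, of the same complex, differed by 4.66. Cenpa, the histone variant that marks the centromere, read 9.54, 10.02 and 10.08 against 6.81, 7.19 and 7.66. Cenpe, a motor of the kinetochore, read 7.30, 7.74 and 8.02 against 3.79, 4.16 and 4.58. Cenpf, a large protein of the outer kinetochore, had the widest spread within the Xist set, at 6.39, 7.05 and 7.44, and read 4.19, 4.25 and 4.52 in the Y set.

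Genes of chromosome structure differed by 4.03 to 6.36. Mki67, the proliferation antigen that coats mitotic chromosomes, read 9.46, 9.68 and 9.92 in the Xist set and 4.91, 5.39 and 6.58 in the Y set. Top2a, the topoisomerase that untangles sister chromatids, read 9.99, 10.07 and 10.14 against 3.01, 3.71 and 4.78. The condensin subunits differed by 4.03 (Ncapg), 4.37 (Smc2) and 4.45 (Ncapd2).

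Spindle motors and microtubule-binding proteins differed by 4.06 to 5.60. Kif11, the motor that pushes spindle poles apart, read 8.82, 9.06 and 9.14 against 3.22, 3.45 and 3.71. Kif2c, which depolymerises microtubules at the kinetochore, read 7.24, 7.42 and 7.54 against 2.92, 3.36 and 3.83. The differences of Nusap1, Tpx2, the activator of Aurka, and Hmmr were 4.20, 4.30 and 4.86.

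Of the members grouped with the anaphase-promoting complex, Cdc20, Ube2c and Cdca3 followed the other members and its target securin did not. Cdc20, the activator used at the metaphase checkpoint, read 8.46, 8.59 and 8.76 in the Xist set and 3.98, 4.32 and 4.52 in the Y set. Ube2c, the ubiquitin-conjugating enzyme of the complex, read 10.32, 10.52 and 10.64 against 5.89, 7.03 and 8.05. Cdca3 differed by 4.29. Pttg1, or securin, which holds separase inactive until anaphase, read 7.21, 7.40 and 7.48 in the Xist set and 7.54, 7.80 and 7.93 in the Y set. Its sets did not overlap, and the Y set was the higher, as for 6.59% of all genes. The table does not give the probes of the Pttg1 feature, so which transcripts they bind was not tested.

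Cytokinesis genes differed by 1.57 to 5.12. Kif20a, a kinesin of the central spindle, read 7.14, 7.35 and 7.42 against 3.78, 4.05 and 4.46. Kif23 and Racgap1, the partners that form centralspindlin, were among the 5 smallest differences: Kif23 read 8.41, 8.75 and 8.81 against 5.87, 6.26 and 6.69, and Racgap1 read 8.68, 8.81 and 8.89 against 7.09, 7.24 and 7.49. Prc1, the bundler of the central spindle, differed by 5.12, Ect2, the exchange factor that starts the contractile ring, by 4.28, and Anln, its anillin scaffold, by 3.98. Features of different genes differ in probe response, so levels do not rank transcripts.

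On each of the 6 Xist-set arrays all 42 members lay above the array's median over genes, and on the Y-set arrays 19 to 29 did. No detection calls come with the values, so whether a low Y-set value stood above background was not tested. Differences at the low end of such arrays come out compressed, and a gap between sets may therefore be understated.

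Other genes of the same pathway, from a separate list, were described in the same way. It held 72 other mitosis genes that were measured. For 70 of the 72 the Xist set lay wholly above the Y set, and the median difference was 3.14. The share over all genes, for these and the next lists, was 7.45%. Among them Pbk, a mitotic kinase, had the largest difference, at 5.55. The overlapping pair was Sapcd2, at 5.56 to 6.05 against 5.04 to 6.40, and Mad1l1, a checkpoint protein, at 6.35 to 6.59 against 5.62 to 6.45. All 19 measured DNA replication genes were wholly higher in the Xist set, by a median of 3.35. The regulators of the DREAM and MuvB complexes moved less: 10 of 17 were wholly higher in the Xist set and the median difference was 0.98. The largest differences were those of E2f8, at 2.84, and E2f7, at 2.69, the atypical E2F repressors, and of the activator Mybl2, at 2.09. For Rbl2 (p130) and E2f4, parts of the complex in resting cells, the difference was -0.17 and 0.07, and their sets overlapped. Core subunits of the anaphase-promoting complex and its cofactors, which resting cells also use, differed by a median of 0.38, with 7 of 14 wholly higher. Ube2s, the E2 enzyme that extends chains, differed most among them, at 1.95.

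Some markers of other cells differed between the sets too, and their part in the members' values was not tested. The defining genes of the sorted cells were present on every array: Ly6c2 spanned 12.2 to 12.5 (Xist set) and 12.3 to 12.6 (Y set), while Csf1r (CD115) read 9.73 to 10.1 against 10.9 to 11.1 and Itgam (CD11b) 9.40 to 9.88 against 10.4 to 10.7. Of the 6 measured markers of the sorted cells 4 were wholly higher in the Y set, and the list mean spanned 10.1 to 10.4 (Xist set) and 10.8 to 11.1 (Y set). Of 8 primary granule genes and other genes of myeloid precursors 6 were wholly higher in the Xist set and 1 in the Y set. The list mean was 9.60 to 9.91 against 6.19 to 6.92. Mpo, the myeloperoxidase gene, read 10.9 to 11.6 against 4.74 to 5.15, while Srgn read 10.7 to 10.9 against 11.1 to 11.7. The 12 neutrophil markers had means of 6.56 to 7.14 and 5.50 to 6.73, with 5 wholly higher in the Xist set and 1 in the Y set. Progenitor genes, with means of 5.51 to 5.72 and 4.83 to 4.92, were wholly higher in the Xist set for 2 of 8 and in the Y set for 2. Ly6C-low monocyte markers were wholly higher in the Y set for 5 of 8, with means of 6.76 to 7.13 and 7.93 to 8.81. Erythroid markers, 3 of 5 wholly higher in the Y set, had means of 3.48 to 4.10 and 6.43 to 7.42, and the globin gene Hbb-bs read 1.502 to 3.30 against 10.6 to 11.8. Platelet markers, 3 of 6 wholly higher in the Y set, had means of 4.25 to 4.45 and 5.14 to 6.40. T cell markers, 3 of 6 wholly higher in the Y set, had means of 3.22 to 3.49 and 3.81 to 4.50. Means of B cell markers were 4.01 to 4.27 and 4.30 to 4.98, and those of dendritic cell markers 4.31 to 4.85 and 4.72 to 5.30, with 1 gene of each list wholly higher in the Y set. Natural killer cell markers had means of 4.14 to 4.41 and 3.97 to 4.34, with 1 of 6 wholly higher in each direction. Of all genes 7.45% were wholly higher in the Xist set and 6.59% in the Y set. Beside these shares, a count of 1 or 2 genes in so short a list is no result about a cell type.

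**Figure D2:**
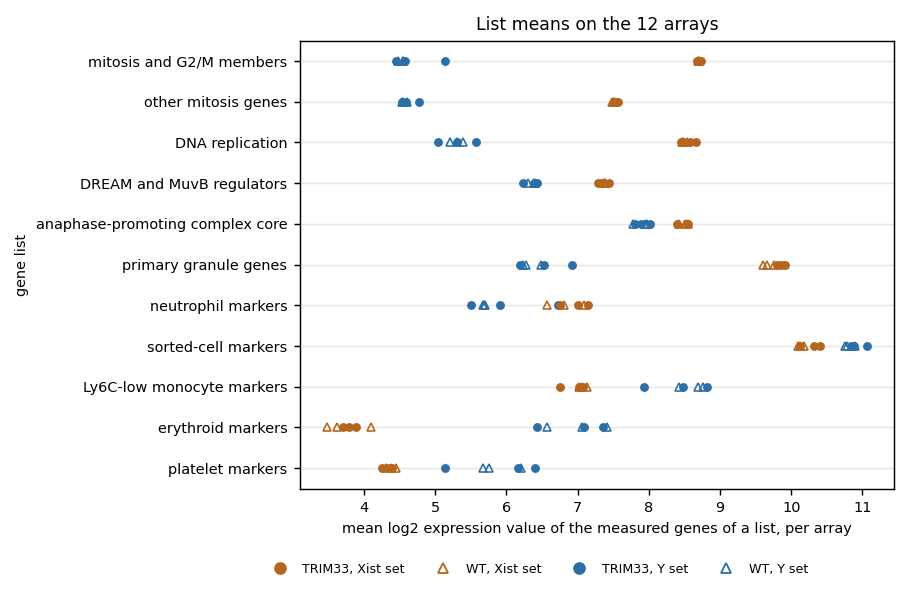
Mean log2 expression value over the measured genes of each list (rows) on each of the 12 arrays (x axis); symbols and colours as for the plot of single members. The member means form 2 clusters, 8.68 to 8.73 and 4.45 to 5.14, with a single blue point apart at 5.14, while the anaphase-promoting complex core and the DREAM list differ less.

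Within the sets the members differed in how far they varied. The SD over the 6 arrays of the Xist set ran from 0.0542 to 0.370, with a median of 0.127. In the Y set it ran from 0.0765 to 1.39, with a median of 0.332, and was larger than in the Xist set for 39 of 42 members, as for 47.5% of all genes. The largest Y-set SDs belonged to Ccnb2 (1.39), Nusap1 (0.855), Ccna2 (0.821) and Ube2c (0.794).

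Within the Y set 1 array, TRIM33 replicate 2, titled as a mix, stood above the rest for many members. It was the highest of the 6 Y-set arrays for 25 of 42 members, as it was for 16.5% of all genes. Its mean over members was 5.14, and the other 5 Y-set arrays read 4.45 to 4.57. Ccnb2 read 7.66 there against 3.73, 4.17, 4.79, 4.81 and 5.44 on the other Y-set arrays. Ccna2 read 6.00 there and 3.67 to 4.37 elsewhere in the set. Mki67 stood at 6.58 against at most 5.80, Birc5 at 5.05 against at most 4.16, Cdca3 at 6.79 against at most 5.92 and Top2a at 4.78 against at most 3.94. For other members it was not the highest: Aurka read 4.79, within the 4.40 to 5.41 of the other arrays, and Nusap1 read 5.72 against 6.19 on WT replicate 6. All of these values lay below the Xist set.

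The same array differed for other lists of the Y set, and their part in the members' values was not tested. Its DNA replication mean was 5.58 against 5.04 to 5.40 on the other 5 arrays, with 12 of 19 genes highest there. Its neutrophil mean was 6.73 against 5.50 to 5.90, with 9 of 12 genes highest there and Ngp lowest there. Its primary granule mean was 6.92 against 6.19 to 6.52, with 3 of 8 genes highest there. Mpo read 5.03 on it, within the 4.74 to 5.15 of the other arrays. Of all genes 16.5% were highest on this array. Its Ly6C-low mean was 7.93 against 8.43 to 8.81, the lowest of the set. The 4 mixes lay above both other Y-set arrays for 11 of 42 members, as for 10.6% of all genes. Ube2c read 5.89 and 6.48 on the pair not titled as mixes and 6.81 to 8.05 on the mixes. Nusap1 read 3.81 and 4.49 on that pair and 5.16 to 6.19 on the mixes. What a mix holds is not given, so preparation and cell content cannot be told apart here.

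**Figure D3:**
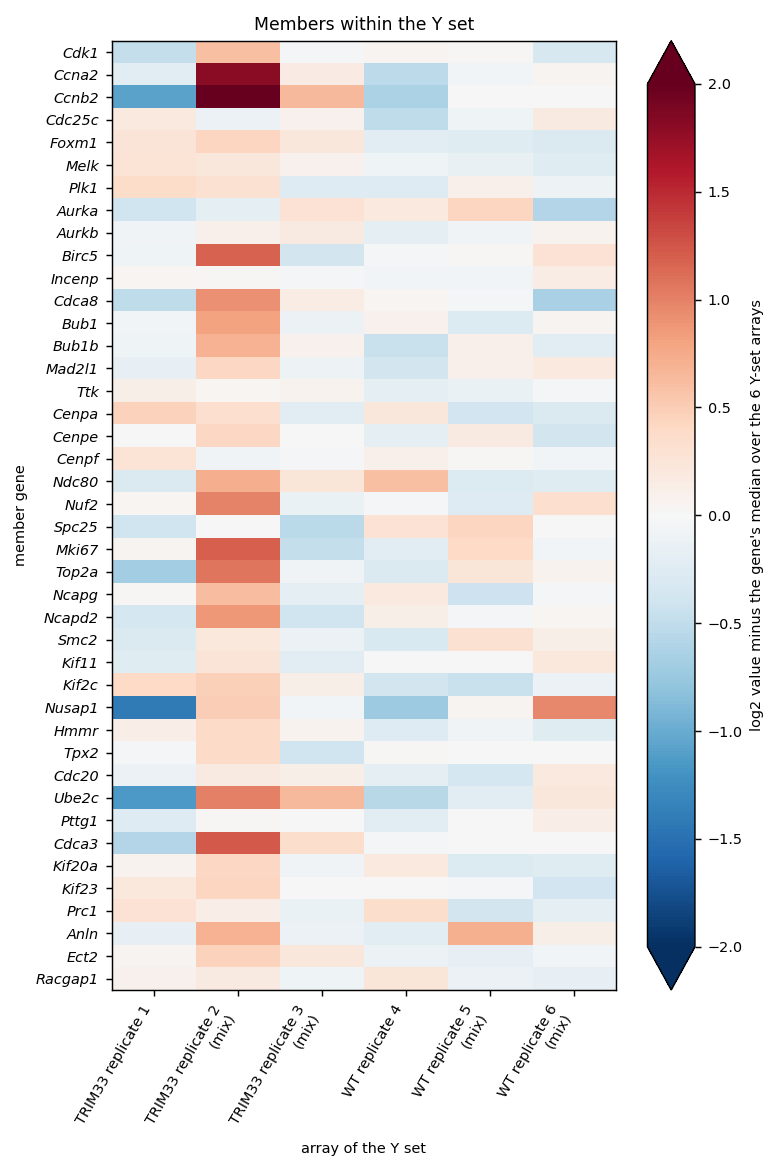
Log2 value of each member (rows) on the 6 arrays of the Y set (columns, mixes marked) minus that gene's median over the 6; the colour scale runs from -2 (blue) to 2 (red). The column of TRIM33 replicate 2 is red in most rows, and Ccnb2, Ccna2, Ube2c and Nusap1 vary most across columns.

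The comparison of genotypes asks whether these genes differed between the arrays labelled TRIM33 and those labelled WT. No member passed. With limma over all 12 arrays and genotype alone, 0 of 42 members had a Benjamini-Hochberg adjusted p under 0.05, while 0.0215% of all genes did, and 0 had an unadjusted p under 0.05, against 3.07% of all genes. A linear model without limma's moderation also called 0. The 2 sets stretch the spread within each genotype: Cdk1 averaged 6.56 ± 3.42 over the WT arrays and 6.71 ± 3.47 over the TRIM33 arrays (SD, n = 6). Standard errors of the members ran from 0.133 to 1.77, so differences of the size seen could not be told from 0 in that fit.

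A block for array set keeps each difference and removes the spread between sets. With it 0 of 42 members passed limma, against 0.0387% of all genes, and 2 had an unadjusted p under 0.05, against 5.28% of all genes. Standard errors then ran from 0.0749 to 0.454. The members' differences, TRIM33 minus WT, ran from -0.23 to 0.57 on the log2 scale with a median of 0.12, against -0.01 over all genes, and 31 of 42 were above 0, as were 45.0% of all genes. Without TRIM33 replicate 2 the median in this fit was 0.01 and 22 of 42 were above 0. Among the 8 arrays not titled as mixes the median was -0.02 and 20 of 42 were above 0.

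The 5 members with the smallest p with that block were all higher in the TRIM33 arrays, and none passed. Ect2 read 3.80, 4.21 and 3.96 on TRIM33 and 3.62, 3.58 and 3.69 on WT arrays of the Y set, which did not overlap, and 8.01, 8.04 and 8.10 against 8.07, 7.98 and 7.94 in the Xist set, which did. Its difference was 0.21 (SE 0.0916, limma adjusted p = 0.936). Kif2c read 3.75, 3.83 and 3.48 against 2.99, 2.92 and 3.24 in the Y set, and 7.45, 7.39 and 7.24 against 7.54, 7.28 and 7.48 in the Xist set, a difference of 0.28 over all arrays (SE 0.132, limma adjusted p = 0.937). The Y-set arrays of Kif2c parted by genotype and those of the Xist set overlapped. The remaining differences were 0.27 for Cenpa (SE 0.140), 0.17 for Melk (SE 0.0954) and 0.13 for Ttk (SE 0.0749), with limma adjusted p = 0.937 for each. The largest difference of any member, 0.57 for Ccnb2 (SE 0.454), rested on TRIM33 replicate 2. In the Y set it was 1.03 (SE 0.816), and without that array the TRIM33 and WT means of the set differed by -0.00089.

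Within the Y set alone, 3 TRIM33 against 3 WT arrays, 0 of 42 members passed limma, against 0.0344% of all genes. An unadjusted p under 0.05 was found for 6, against 4.57% of all genes, and of these 5 were higher and 1 lower. In the Xist set 0 passed, against 0.0129% of all genes, and 0 had an unadjusted p under 0.05, against 4.99% of all genes. Trim33 itself passed neither of these fits, although its values did not overlap between genotypes. Its difference was -0.79 in each, with limma adjusted p = 0.134 (Y set) and limma adjusted p = 0.227 (Xist set). A count of 0 with 3 arrays against 3 therefore does not show that the members were unchanged. The median difference was 0.20 in the Y set, with 33 of 42 above 0, as were 47.4% of all genes. It was 0.0004 in the Xist set, with 21 of 42 above 0, as were 45.8% of all genes. Without TRIM33 replicate 2 the Y-set median was -0.0040 and 20 of 42 members were above 0, as were 47.1% of all genes.

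For 6 members the 3 TRIM33 arrays of the Y set lay wholly above its 3 WT arrays, as for 4.61% of all genes. They were Foxm1, Melk, Ttk, Kif2c, Hmmr and Ect2. All but Foxm1 read at most 4.21 in the Y set, near or below the array medians over features of 4.16 to 4.25. Spc25, given below, read at most 3.53 there. No detection calls exist, so whether such low values stood above background was not tested. For 0 members did the WT arrays of that set lie wholly above, against 5.43% of all genes. Foxm1, the transcription factor that switches on many of the others, read 4.90, 5.06 and 4.86 on TRIM33 and 4.41, 4.39 and 4.35 on WT arrays of the Y set. In the Xist set it ran the other way, with 8.42, 8.49 and 8.43 on TRIM33 and 8.80, 8.74 and 8.53 on WT arrays. Its difference was 0.55 in the Y set (SE 0.112, limma adjusted p = 0.758) and -0.24 in the Xist set (SE 0.129, limma adjusted p = 0.962). The test of the difference between the sets gave 0.80 (SE 0.158), with an unadjusted p = 0.000209 and a limma adjusted p = 0.961. Without TRIM33 replicate 2 the Y-set difference of Foxm1 was 0.49 and that of Kif2c was 0.56, so neither depended on that array. Hmmr, a spindle assembly protein, read 3.44, 3.69 and 3.38 against 3.05, 3.23 and 3.07 in the Y set. Spc25 was the member lower at an unadjusted p under 0.05: it read 2.70, 3.10 and 2.56 on TRIM33 and 3.39, 3.53 and 3.09 on WT arrays of the Y set, which overlapped, and differed by -0.55 (SE 0.177, limma adjusted p = 0.997).

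The interaction of genotype and array set called 0 of 42 members, against 0.0043% of all genes, and 5 had an unadjusted p under 0.05, against 4.21% of all genes. In the Xist set the arrays parted by genotype for Birc5, with TRIM33 wholly higher, as for 4.41% of all genes, and for Foxm1, with WT wholly higher, as for 5.86%. With 3 arrays against 3 such splits are common among all genes, and the members' count in the Xist set does not exceed that share. Over all 12 arrays the genotypes parted for 0 members in either direction, against 0.103% of all genes with TRIM33 and 0.0945% with WT wholly higher.

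**Figure D4:**
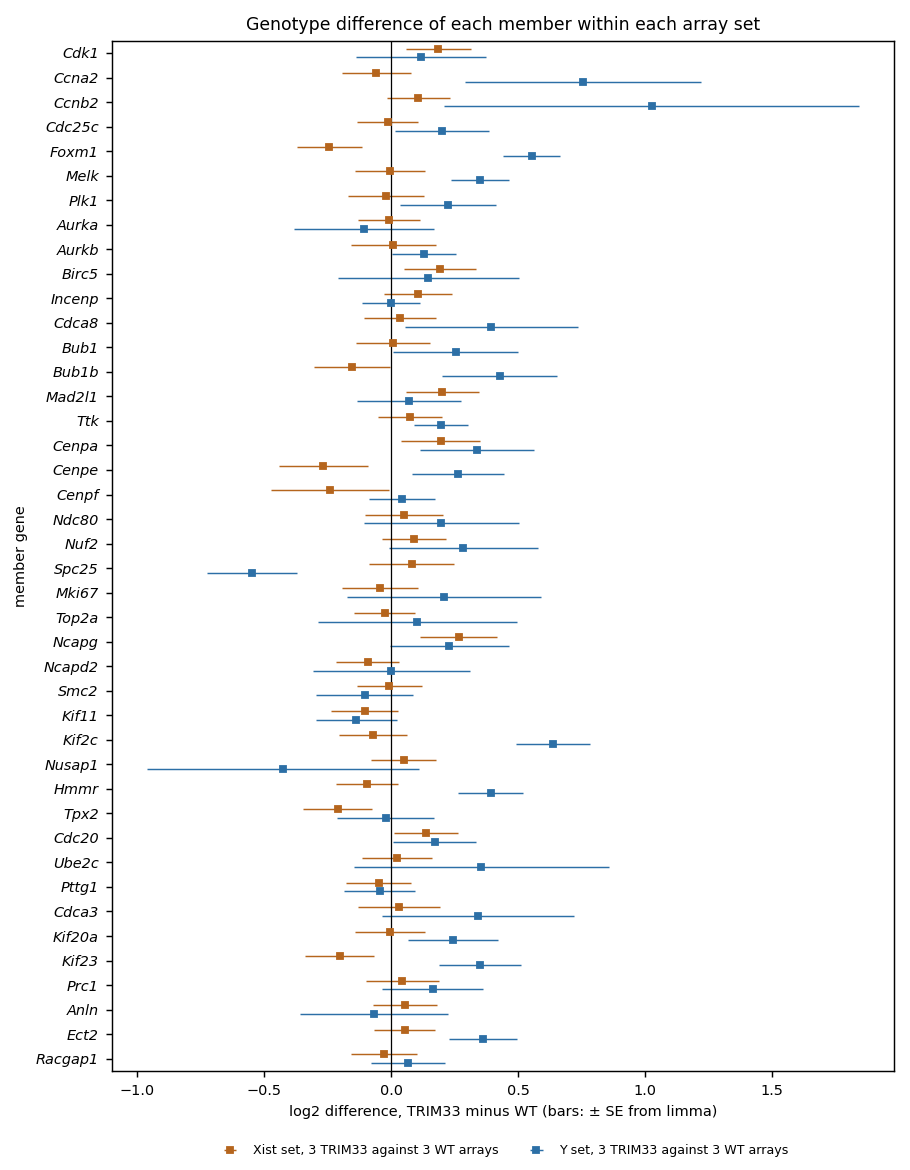
Log2 difference of TRIM33 minus WT for each member (rows) within the Xist set (brown) and the Y set (blue), 3 arrays against 3 in each; bars are ± SE from limma. Brown points stay between -0.27 and 0.27, and blue points range from -0.55 to 1.03.

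Among other genes of the pathway 0 passed for genotype either. Of 72 other mitosis genes 0 passed, with and without the block. Limma gave 7 of the 72 at an unadjusted p under 0.05 with the block (6 higher, 1 lower), against 5.28% of all genes, and 0 without it, against 3.07% of all genes. Those of smallest p with the block were Pbk, at 0.40 (SE 0.134, limma adjusted p = 0.737), Cks2, a Cdk-binding subunit, at 0.33 (SE 0.132), and the kinesin Kif14, at 0.38 (SE 0.157). The same shares over all genes stand beside the remaining lists. Of 17 DREAM and MuvB regulators 0 passed, with 1 at an unadjusted p under 0.05 in the blocked limma fit, Lin52 at -0.24 (SE 0.107). Of 19 DNA replication genes and 14 genes of the anaphase-promoting complex core 0 passed and 0 had an unadjusted p under 0.05 in either fit.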

How the data were processed

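RNA of 12 mouse monocyte samples was amplified from 900 pg, per the labels' protocols, and read on single-colour arrays. The authors deposited the data on the log2 scale, with a single value for each gene-level feature. The tools named per the submitters' processing notes are RMA and Partek. Not given in the sources used here are the versions, the chip definition, the build and whether batches were adjusted. RMA equalises distributions between arrays and compresses differences between dim genes. Precision is limited by the number of arrays. The labels' treatment text describes a T cell sort; source names and series design give monocytes, which were followed.

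Of 24479 features, 23281 carried 1 symbol, 0 several and 1198 none. Where a symbol had several features (2 symbols), the brighter was kept. Tests used limma 3.58.1 (lmFit, eBayes; R 4.3.3), with Benjamini-Hochberg adjustment over all 23279 genes and a threshold of 0.05. The fits used genotype alone, genotype with the array set as a block, each set alone, and an interaction. The scripts were tested on simulated data. Alternatives were other normalizations, a filter on dim genes, other variance models, array weights, preparation, the mix number as a block, and each array left out.

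The members, lists and array sets were chosen with earlier results of these data known. Members given in full were the first 2 of each role, those with the 5 smallest and 5 largest set differences and the 5 of smallest p with the block. Values of Ccnb2, Foxm1, Hmmr, Spc25, Nusap1, Aurka and Cdca3 beyond that rule were chosen after they were seen. Python 3.11.15 and matplotlib 3.10.9 drew the figures.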

Additional observations from a re-analysis of the deposited data

Results flagged for a closer look

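Each member was checked for an array far from the others in each genotype and in each array set of 6 arrays, with a gap test whose chance rate is about 1 in 20 groups. Of 168 checks 5 stood out, all within an array set, where that is about what the chance rate gives. Each genotype group holds 3 arrays of each set, and the gap between sets leaves a single array little room to stand out there. In the Y set TRIM33 replicate 2 was the highest for Ccna2, at 6.00 against 4.37 on the next array, and for Bub1, at 3.67 against 2.96. In the Xist set WT replicate 2 was the lowest for Birc5, at 8.78 against 9.10, and for Cenpa, at 9.54 against 9.91. WT replicate 3 was the lowest of that set for Anln, at 8.55 against 8.72.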

How the results depend on the processing

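The count of members past the threshold for genotype was 0 in each alternative run, with and without the array set as a block, within each set and for the interaction, and 41 members stayed wholly higher in the Xist set under each normalization and with each array left out. TRIM33 replicate 2 was the highest Y-set array for a count of members within 1.5 times 25 under each normalization. No sign change occurred for the 5 members named by p with the block. A replicate block built on the mix number gave a count of 0 and a median difference of 0.12. Labels do not say what the 2 shared mix numbers mean, so they were not taken as pairs. The Xist-set median, 0.0004, was -0.0211 with quantile normalization and 0.0232 with array medians equalised, and ran from -0.0206 to 0.0174 with single arrays left out. The Y-set median ran from -0.0040, without TRIM33 replicate 2, to 0.28. Without the block, leaving out an array unbalances the sets, and the median over all arrays then ran from -0.34 to 0.54. It was -0.02 among the 8 arrays not titled as mixes and 0.03 with array weights. Signal over background limits the Y-set values, which have no detection calls.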
